A study of Homo sapiens with 15 samples.

Results

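The genes examined here encode the 4 ID proteins (ID1, ID2, ID3 and ID4), the 3 E proteins (TCF3, also called E2A; TCF4, also called E2-2; TCF12, also called HEB) and the repressor HES1. They were chosen by symbol, because ID genes are known targets of ZBTB18 in the developing cortex and E proteins are the partners of ID proteins. All 8 symbols were found among the 18485 genes counted. The cells were SNB19, a human glioblastoma line, grown in medium with 10% fetal bovine serum and transduced with a pCHMWS lentiviral vector. The vector was empty (EV) or carried ZBTB18, a zinc finger transcriptional repressor, in full-length form (FL), as a mutant of that form (FL-mut), as a short form (SF-Nte) or as a mutant of the short form (SF-mut). Each of the 5 groups had 3 libraries of polyadenylated RNA read as PCR-amplified cDNA on an Oxford Nanopore instrument. The labels name neither the mutated residues nor the promoter in the vector, and they do not say whether cells were cloned or replicates were separate cultures, so the p-values rest on a spread that may be technical.

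ID proteins carry a helix-loop-helix without the basic region that contacts DNA. They pair with E proteins, the broadly expressed basic helix-loop-helix factors, and keep them off the E-box motif. E proteins otherwise pair with each other or with tissue-restricted factors of the same class to drive differentiation, while ID proteins are associated with progenitor and dividing cells and are raised by BMP signals and by serum. HES1 is a basic helix-loop-helix-related repressor downstream of Notch that keeps neural progenitors undifferentiated. In mouse cortex, loss of Zbtb18 is known to leave Id genes expressed in cells that would normally shut them off.

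ZBTB18 is known to bind an E-box-like core, CATCTG. On the opposite strand it reads CAGATG. RefSeq promoter windows on GRCh38.p14, each from 250 bases before to 50 after a transcript start, were searched for this core on both strands. It was found in 3 of the 10 windows of TCF4 and in 0 of 1 for ID1, ID2, ID3, ID4, TCF3 and HES1 each, and in 0 of 5 for TCF12, while 14.7% of all 35116 windows held it. The 30 bases around each TCF4 match are shown because no other member had a match. TCF4 also had the most windows searched, so it had the most places for a match to fall. A window of ZBTB18 itself that holds the longer form ACATCTGG, found in 0.982% of windows, is shown for comparison. Capitals mark the core, and every line reads 5′ to 3′ on the strand of the gene.
TCF4 chr18:55403946-55403975 (minus strand), core starting 37 bases after a transcript start: ttctttgctaaattcacCATCTGgagagcc
TCF4 chr18:55401858-55401887 (minus strand), core starting 187 bases before a transcript start: ccttcctttctgCAGATGgtcatggcagag
TCF4 chr18:55320886-55320915 (minus strand), core starting 32 bases after a transcript start: gtttatacttgcCATCTGgaggtttatttt
ZBTB18 chr1:244048544-244048573 (plus strand), core starting 97 bases before a transcript start: gggtggggggaaCATCTGgccggcgccgcc
These matches describe letters only. No binding was measured, and the windows cover a small part of each gene.

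EV libraries held 1274474 to 1930245 counts, FL 803316 to 1393060, FL-mut 865997 to 1313573, SF-Nte 432611 to 603155 and SF-mut 315693 to 597414. The short-form libraries were therefore the shallowest, with 1 count worth between 1.63 and 3.08 CPM there and between 0.500 and 1.24 CPM elsewhere. CPM is the count relative to the TMM-scaled library size and is not divided by transcript length, so levels are compared between groups and not between genes. ZBTB18 stood at 4.37 to 7.12 CPM in the EV libraries, 623 to 3067 in FL, 907 to 6858 in FL-mut, 199 to 470 in SF-Nte and 853 to 3631 in SF-mut. Every SF-Nte library thus lay below every FL and every SF-mut library. In any comparison that sets SF-Nte against those groups, construct level cannot be told apart from form or mutation. FL-mut overlapped both FL and SF-mut. Of 10 markers of glial and mesenchymal glioma cells, all 10 were read and 8 were deep enough to test. VIM had 547 ± 227 CPM (SD, n = 3) in EV, whereas the astrocyte marker GFAP was nearly absent at 0.819 ± 0.745 CPM. The 10 markers summed to 759 to 1785 CPM for EV, 340 to 921 for FL, 754 to 1148 for FL-mut, 1457 to 1716 with SF-Nte and 1335 to 1664 with SF-mut. Markers of immune, endothelial, epithelial and neuronal cells (6 of 10, 5 of 8, 4 of 8 and 6 of 8 read) summed to at most 34.7, 23.1, 21.2 and 140 CPM in any library, and the neuronal sum was 5.50 to 20.4 CPM for EV, 26.4 to 45.5 for FL, 20.2 to 140 for FL-mut, 1.88 to 32.4 with SF-Nte and 22.9 to 77.1 with SF-mut. Their part in the results below was not tested, and in bulk RNA fewer cells of a type and less RNA per cell cannot be told apart.

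Among the 8 genes, 1 passed in the edgeR fit of all 15 libraries, the main test here. TCF3, the E protein of the E2A locus, was read in all 9 EV, FL and FL-mut libraries and had 0 counts in all 6 short-form libraries. None of the ID genes passed that test, though ID2 in SF-Nte against FL passed with DESeq2, and a single EV library held most of the ID2 and ID3 reads of its group. TCF4 lay lower with both full-length constructs than with EV in every library, and TCF12 was high in 1 FL library, but neither passed the edgeR test when adjusted over all genes. HES1 had equal means in EV and FL, and ID4 was hardly read. In all, 7 of the 8 genes passed the filter on low counts, ID4 being the exception, and were tested among 6767 genes.

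**Figure D1:**
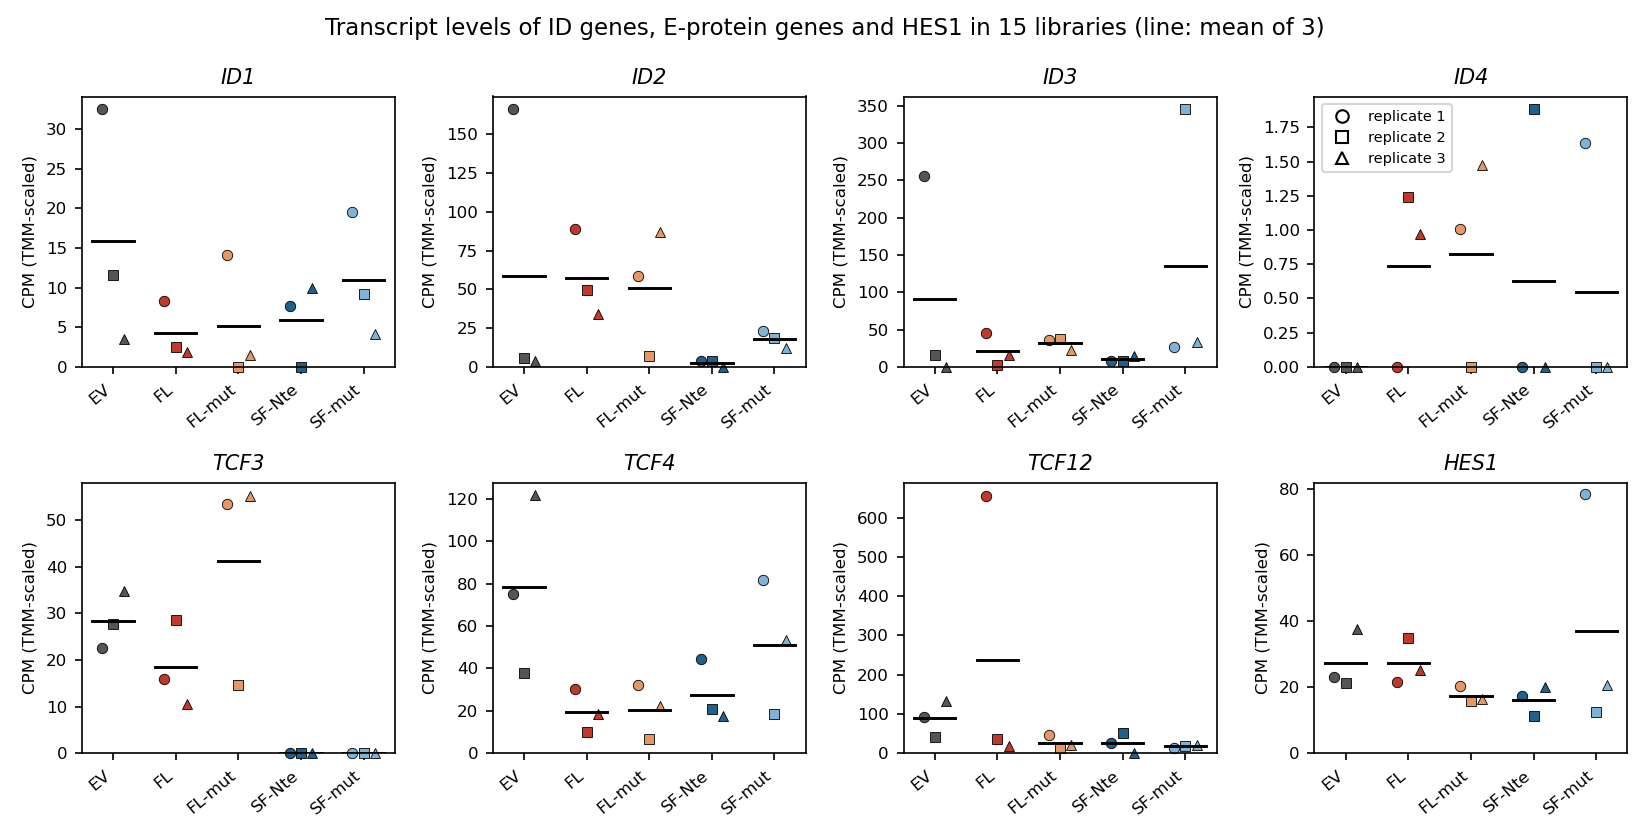
Level in CPM (vertical axis, own scale from 0 in each panel) of the 8 genes in each of the 15 libraries, by group (horizontal axis); marker shape gives the replicate number and the line is the mean of 3. TCF3 sits at 0 in all SF-Nte and SF-mut libraries, and single libraries stand high for ID2 and ID3 in EV, ID3 in SF-mut and TCF12 in FL.

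ID1 (chromosome 20, 31605283 to 31606515, plus strand; GENCODE 29 on GRCh38 here and below) was read with 65, 16 and 4 counts in EV replicates 1, 2 and 3, or 32.5, 11.7 and 3.56 CPM. FL had 8.32, 2.49 and 1.94 CPM, FL-mut 14.1, 0 and 1.47, SF-Nte 7.70, 0 and 9.96, and SF-mut 19.6, 9.25 and 4.10. EV replicate 1 was the highest of all libraries, and every group overlapped EV. Against EV, ID1 gave a log2 fold change of -1.84 ± 1.20 (SE) with FL and -1.62 ± 1.19 with FL-mut. The short forms gave -1.47 ± 1.26 (SF-Nte) and -0.52 ± 1.19 (SF-mut), and edgeR adjusted p ran from 0.68 to 0.997. Outside EV replicates 1 and 2 no library exceeded 14 counts of ID1, and the differences were within the spread between libraries.

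ID2 (chromosome 2, 8678845 to 8684453, plus strand) is the ID gene best known for restraining neuronal and glial differentiation. It had 166, 5.83 and 3.56 CPM in EV, from 332, 8 and 4 counts, so replicate 1 held nearly all of the reads of the group. The FL libraries had 88.8, 49.8 and 33.9 CPM, FL-mut 58.6, 6.79 and 87.0, SF-Nte 3.85, 3.76 and 0, and SF-mut 22.9, 18.5 and 12.3. SF-Nte was low in all 3 libraries, at 2, 2 and 0 counts, and lay below every FL and every SF-mut library. ID2 differed from EV by a log2 fold change of -4.39 ± 1.43 (SE) in SF-Nte (edgeR adjusted p = 0.60, unadjusted 0.0077), but by -0.78 without EV replicate 1. Against FL, the SF-Nte value was -4.35 ± 1.44 (adjusted p = 0.18, unadjusted 0.0082), and between -4.70 and -3.87 with any 1 of the 6 libraries left out. That comparison passed with DESeq2 (adjusted p = 0.028, with 296 of 6767 genes called, against 72 by edgeR). It also passed in an edgeR fit of the FL and SF-Nte libraries alone (0.015, with 130 of 4432 genes called). SF-mut stood above SF-Nte by 2.67 ± 1.52 (adjusted p = 0.66), and 5.75% of genes lay higher without overlap in that comparison, while 14.6% lay lower without overlap in SF-Nte than in FL. FL and FL-mut differed from EV by -0.04 ± 1.04 and -0.21 ± 1.04, which became 3.56 and 3.39 without EV replicate 1, and SF-mut by -1.71 ± 1.14. The span of an antisense gene, ID2-AS1, reaches exons of ID2 on the other strand. Whether exons of both genes overlap was not examined, and the use of strand in counting is not given. Some reads of ID2-AS1 may therefore have been counted as ID2. The same limit holds for ID4, whose exons the span of AL022068.1 reaches, and for TCF4.

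ID3 (chromosome 1, 23557918 to 23559794, minus strand) is induced together with ID1 by BMP signals in many cells. Its EV libraries had 256, 16.0 and 0 CPM, from 512, 22 and 0 counts. FL had 45.8, 2.49 and 15.5 CPM, FL-mut 35.3, 37.3 and 22.1, SF-Nte 7.70, 7.53 and 14.9, and SF-mut 26.1, 345 and 32.8. The high EV library was again replicate 1, and SF-mut replicate 2, the shallowest library of the study, was higher still. The log2 fold change of ID3 against EV was -2.06 ± 1.32 (SE) with FL and -1.53 ± 1.30 with FL-mut. It was -3.20 ± 1.50 with SF-Nte and 0.53 ± 1.27 with SF-mut (edgeR adjusted p from 0.68 to 0.997). Without EV replicate 1 all 4 values were above 0, at 1.39, 1.91, 0.25 and 3.97. All SF-mut libraries lay above all SF-Nte libraries, as did 5.75% of genes, with a log2 difference of 3.73 ± 1.54 (adjusted p = 0.58, unadjusted 0.028) that was 1.55 without SF-mut replicate 2.

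ID4 (chromosome 6, 19837386 to 19840684, plus strand), expressed in neural progenitors and astrocytes, had 0 counts over the EV libraries, 2 over FL, 3 over FL-mut and 1 over each short-form group. A count of 0 over the EV group allows up to 0.667 CPM there (3 counts over the group; counting error only). No difference between groups can be read at this depth.

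**Figure D2:**
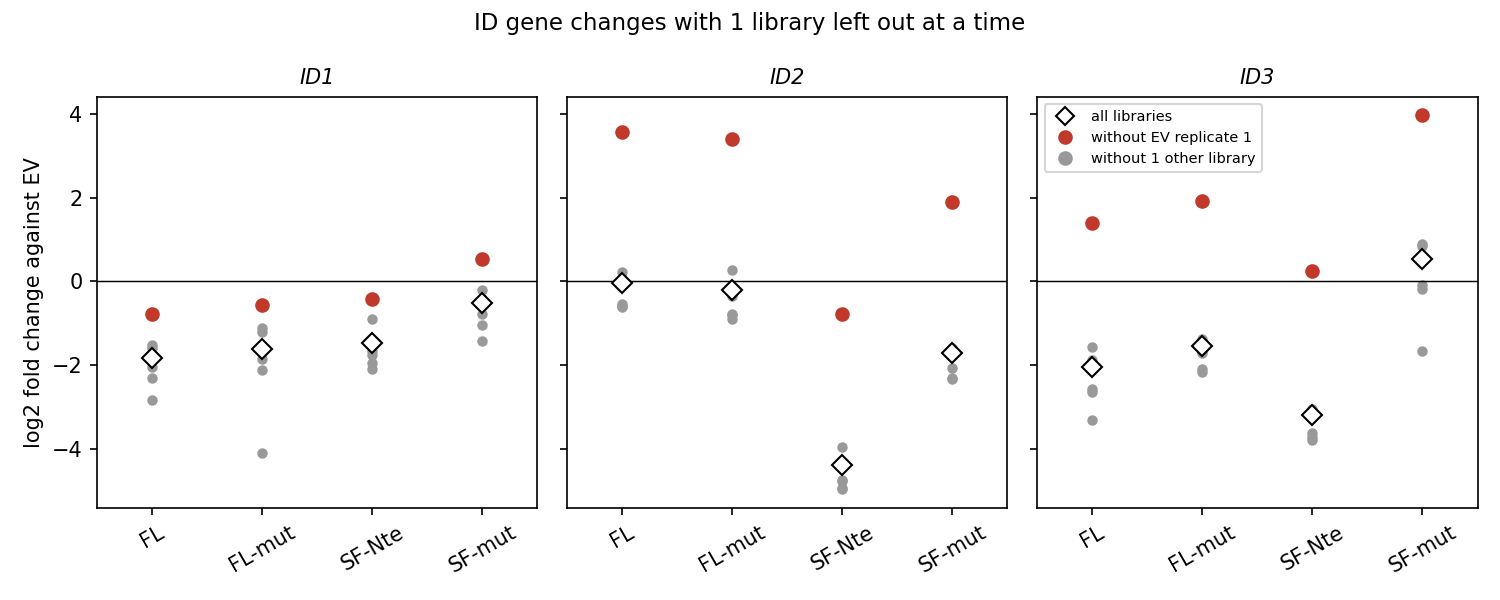
Log2 fold change of ID1, ID2 and ID3 against EV (vertical axis) for each construct (horizontal axis) with all libraries (open diamonds), without EV replicate 1 (red) and without any 1 other library of the groups compared (grey). Leaving out EV replicate 1 moved every value upward, for ID2 in FL from -0.04 to 3.56 and for ID3 in SF-Nte from -3.20 to 0.25.

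TCF3 (chromosome 19, 1609290 to 1652605, minus strand) encodes the E12 and E47 proteins. EV had 45, 38 and 39 counts of it, FL 23, 23 and 11, and FL-mut 53, 13 and 75, with 0 in each of the 3 SF-Nte and 3 SF-mut libraries. In CPM, EV had 22.5, 27.7 and 34.7, FL 16.0, 28.6 and 10.6, and FL-mut 53.5, 14.7 and 55.3. The short-form groups and the other groups did not overlap. At the mean EV level of 28.3 ± 6.13 CPM (SD, n = 3) the 6 short-form libraries would hold 81.4 counts together, between 9.18 and 17.3 each, and at the level of the lowest other library, FL replicate 3, they would hold 30.6 together. None of these expected counts was found.

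The test of any difference among the 5 groups gave an edgeR adjusted p of 0.013 for TCF3, and 1.12% of the 6767 genes passed it. With 3 counts over a group as the floor, TCF3 was at least 8.91-fold lower in SF-Nte than in FL (edgeR adjusted p = 0.034; 1.06% of genes passed) and at least 19.5-fold lower in SF-mut than in FL-mut (0.028; 0.163% passed). It was at least 13.7-fold lower in SF-Nte and 13.4-fold lower in SF-mut than in EV, where the adjusted p was 0.088 and 0.096 (unadjusted 9.1e-05 and 9.9e-05) and DESeq2 gave 0.0035 and 0.0046. Each bound divides the mean of the other group by the floor and leaves out the spread of that group. In FL the libraries ran from 10.6 to 28.6 CPM, and in FL-mut from 14.7 to 55.3, so bounds from single libraries would be lower or higher. The call among the 5 groups held in all 15 fits with 1 library left out (adjusted p from 0.0056 to 0.033). Between SF-Nte and FL it held only without FL replicate 3 (0.047; up to 0.13 otherwise), and between SF-mut and FL-mut only without FL-mut replicate 2 (0.015; up to 0.16). A fit of the SF-mut and FL-mut libraries alone gave 0.30 for that comparison, and with the replicate number as a block both missed the threshold (0.065 and 0.092).

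With both short-form groups at 0, no fold between SF-mut and SF-Nte can be given. The short-form libraries were also the shallowest. One deposited sample sheet lists SF-Nte with EV, FL and FL-mut under barcodes of a single series, and a second lists SF-Nte with SF-mut, whose barcode names repeat those of EV, so SF-mut and its handling cannot be told apart. Whether the libraries of either short form were also aligned or counted apart from the rest is not given in the sources and was not tested. If they were, a 0 for TCF3 and the bounds above would not measure its level. Of the 18485 genes, 2 had 0 counts in the 6 short-form libraries and at least 10 in each of the 9 others: TCF3 and MDK, which encodes the growth factor midkine. MDK was singled out for this pattern, with 16.7 ± 10.4 CPM for EV, 42.9 ± 13.3 for FL and 53.5 ± 35.2 for FL-mut (SD, n = 3 each). The reverse pattern, 0 in the 9 and at least 10 in each of the 6, was found for 0 genes. That search was stricter, because its cutoff is in counts. In the short-form libraries 1 count is worth 1.63 to 3.08 CPM, against 0.500 to 1.24 in the others. The numbers of genes with each pattern therefore cannot be compared. Between the full-length constructs TCF3 overlapped, and it differed from EV by a log2 fold change of -0.63 ± 0.63 (SE) in FL and 0.55 ± 0.62 in FL-mut (edgeR adjusted p = 0.92 and 0.80).

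**Figure D3:**
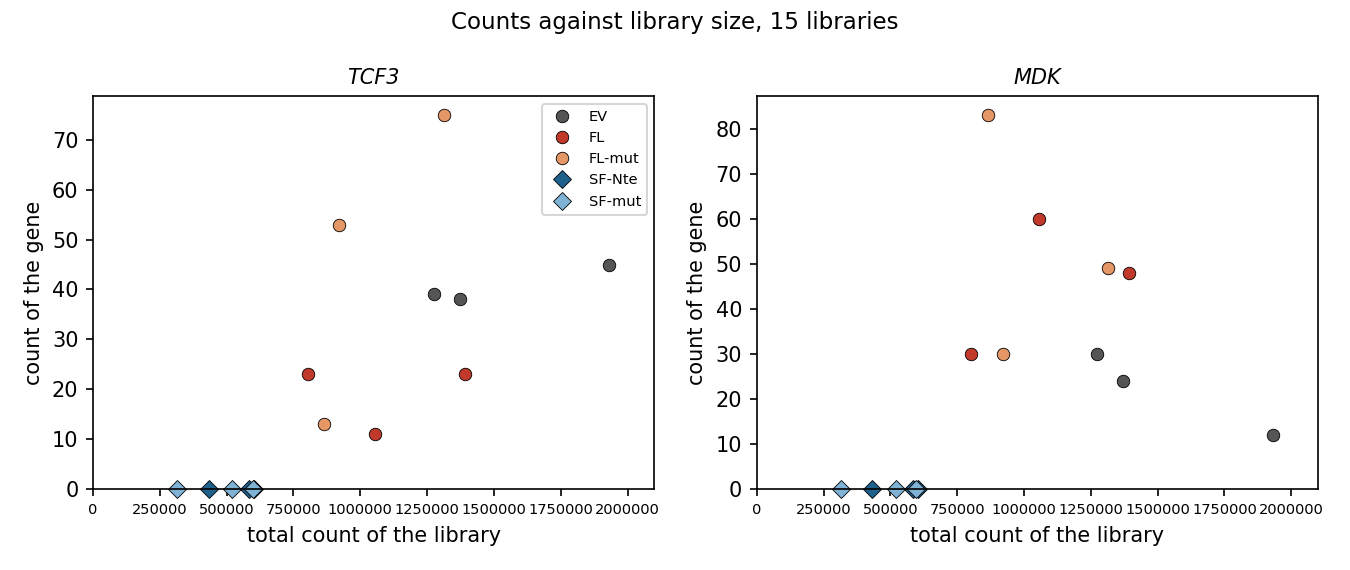
Count of TCF3 (left) and MDK (right) in each library (vertical axis) against the total count of the library (horizontal axis); circles are EV, FL and FL-mut, diamonds the short forms. All 6 diamonds lie at 0 for both genes, and the lowest circle holds 11 counts of TCF3 and 12 of MDK.

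TCF4 (chromosome 18, 55222331 to 55664787, minus strand), the E protein whose loss of 1 copy causes a neurodevelopmental disorder, Pitt-Hopkins syndrome, had 75.0, 37.9 and 122 CPM in EV. It had 30.5, 9.95 and 18.4 CPM in FL and 32.3, 6.79 and 22.1 in FL-mut, and every one of these 6 libraries lay below every EV library. The SF-Nte libraries had 44.3, 20.7 and 17.4 CPM and the SF-mut libraries 81.7, 18.5 and 53.3, both overlapping EV. Relative to EV, TCF4 gave a log2 fold change of -1.96 ± 0.66 (SE) in FL (edgeR adjusted p = 0.33, unadjusted 0.0093) and -1.92 ± 0.66 in FL-mut (0.31, unadjusted 0.011). With 1 library left out it stayed between -2.47 and -1.52 in FL and between -2.44 and -1.51 in FL-mut. With the replicate number as a block it was -2.04 in FL (edgeR adjusted p = 0.098) and -2.05 in FL-mut (0.11). These 2 comparisons share the EV libraries. The spans of TCF4-AS1, TCF4-AS2 and a pseudogene, RPL21P126, reach exons of TCF4 on the opposite strand. Whether their exons overlap those of TCF4 was not examined, and some of their reads may have been counted as TCF4. Groups did not overlap, in the lower direction, for 8.17% of all genes tested in FL and 9.07% in FL-mut. FL-mut and FL differed by 0.04 ± 0.66, with a 95% interval from -1.37 to 1.45, so a difference of the size seen against EV is outside this interval but one of 2-fold is not. SF-Nte and SF-mut differed from EV by -1.49 ± 0.67 and -0.58 ± 0.64 (adjusted p = 0.66 and 0.997).

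TCF12 (chromosome 15, 56918623 to 57299281, plus strand) had 91.5, 41.5 and 133 CPM in EV. FL replicate 1 had 656 CPM, from 946 counts, and the other FL libraries 36.1 and 19.4 CPM. That library stood 4.95-fold above the next highest of the 15, and it was the highest by at least 4-fold, with at least 100 counts, for 2 of the 6767 genes. FL-mut had 46.5, 12.4 and 20.6 CPM, SF-Nte 27.0, 50.8 and 0, and SF-mut 13.1, 18.5 and 20.5. All SF-mut libraries lay below all EV libraries, as did 7.68% of genes in that comparison. Relative to EV, TCF12 in FL gave a log2 fold change of 1.43 ± 1.04 (SE), but -1.72 without FL replicate 1. The values were -1.73 ± 1.08 for FL-mut, -1.73 ± 1.11 with SF-Nte and -2.35 ± 1.17 with SF-mut (edgeR adjusted p from 0.59 to 0.92). FL-mut stood below FL by -3.16 ± 1.13 (adjusted p = 0.33, unadjusted 0.013), which was -0.06 without FL replicate 1, and SF-Nte by -3.16 ± 1.15 (0.23, unadjusted 0.015), which was -0.04 without it. Over the 5 groups the adjusted p of TCF12 was 0.19 with edgeR and 0.022 with DESeq2, which called 652 of 6767 genes there against 76 by edgeR.

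HES1 (chromosome 3, 194136145 to 194138732, plus strand) was read in all 15 libraries. EV had 23.0, 21.1 and 37.4 CPM, FL 21.5, 34.8 and 25.2, FL-mut 20.2, 15.8 and 16.2, SF-Nte 17.3, 11.3 and 19.9, and SF-mut 78.4, 12.3 and 20.5. FL and EV had equal means of 27.2 ± 6.89 and 27.2 ± 8.90 CPM (SD, n = 3), and the 95% interval of their log2 difference ran from -1.21 to 1.20. All FL-mut and all SF-Nte libraries lay below all EV libraries, with log2 fold changes of -0.63 ± 0.58 and -0.75 ± 0.61 (SE, edgeR adjusted p = 0.74 and 0.86). Of all genes tested, 9.07% were lower than EV without overlap in FL-mut and 11.3% in SF-Nte. SF-mut replicate 1 was the single high library: SF-mut against EV was 0.49 ± 0.58, or -0.79 without it, and SF-mut against SF-Nte 1.24 ± 0.62, or -0.02 without it. The interaction, which asks whether the mutation shifted HES1 differently in the short form than in the full-length form, was 1.87 ± 0.85 (adjusted p = 0.9998, unadjusted 0.043), or 0.63 without SF-mut replicate 1.

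**Figure D4:**
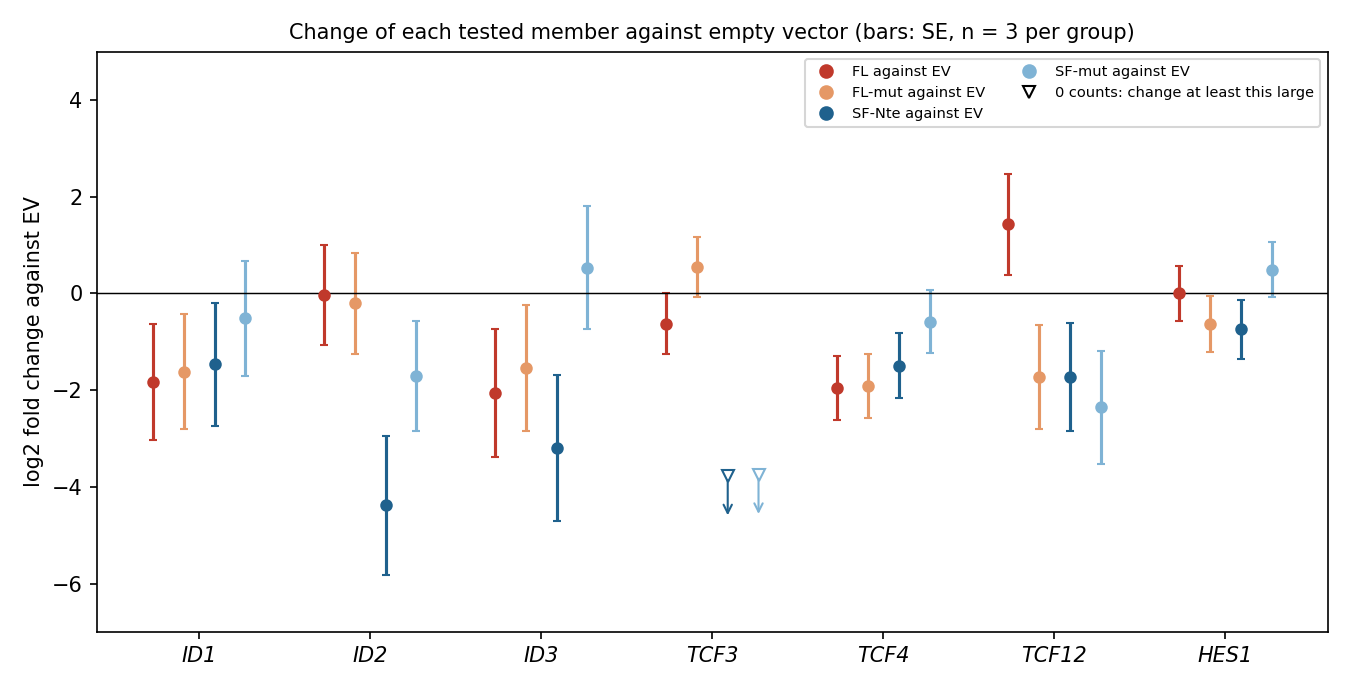
Log2 fold change against EV (vertical axis) of the 7 tested genes (horizontal axis) for FL, FL-mut, SF-Nte and SF-mut; points are the edgeR estimates with bars of 1 SE, and open triangles with arrows mark TCF3 in the short forms, where 0 counts give only a bound. ID1, ID2 and TCF4 have points below 0 with all 4 constructs, and TCF12 in FL is the highest point of the plot at 1.43.

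Counted over the 7 genes tested, 0 passed an edgeR adjusted p of 0.05 against EV with any construct, where 0.31% of all genes passed with FL, 0.192% with FL-mut, 0.0443% with SF-Nte and 0.0591% with SF-mut. DESeq2 called 0 members in FL and FL-mut and 1 (TCF3) in each short form, and over all 6767 genes it called 128, 145, 24 and 25 in these comparisons. At an unadjusted p under 0.05 there was 1 with FL (TCF4), 1 with FL-mut (TCF4), 4 with SF-Nte (ID2, ID3, TCF3 and TCF4) and 1 with SF-mut (TCF3), against 7.64%, 10.5%, 7.23% and 5.36% of all genes. The fold change lay below 0 for 6, 6, 7 and 5 of the 7, against 50.4%, 48.2%, 57.2% and 51.6% of all genes, with medians of -0.63, -1.53, -1.73 and -0.58 against -0.01, 0.04, -0.13 and -0.02 over all genes tested; these 4 comparisons share the EV libraries, including EV replicate 1. Without that library the fold change lay below 0 for 4, 4, 6 and 3 of the 7, against 47.4%, 47.2%, 55.3% and 50.5% of all genes, and the medians were -0.12, -0.56, -0.86 and 0.38. Placing TCF3 at its bound leaves the short-form medians as they are. Between mutant and unmutated constructs, 0 members passed in the full-length pair (0.0887% of all genes passed; 1 member at an unadjusted p under 0.05, 0 by DESeq2) and 0 in the short-form pair (0% passed; 1 unadjusted, 0 by DESeq2). At an unadjusted p under 0.05 the share of all genes was 12.1% in the full-length pair, 8.33% in the short-form pair and 4.65% for the interaction. For the interaction 0 members passed (0.0296% of genes; 1 unadjusted, 0 by DESeq2). In simulated counts 0% of 2-fold changes and 60.5% of 8-fold changes were recovered in FL against EV, and 0% and 45.5% in SF-Nte against EV, so genes that were not called may still differ. Each simulation changed 200 randomly chosen genes at once, at any expression level, and counted genes lost to the filter as missed. These shares are therefore not detection rates for the members.

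The genes around this network were described from 6 lists. Of their 152 genes, 112 were read and 44 tested, and 0 passed in any of the 8 comparisons of groups by edgeR; between 0 and 4 of the 44 had an unadjusted p under 0.05, and DESeq2 called 0 except 1 in SF-mut against FL-mut. That gene, ACVR1, a type I BMP receptor, had 0 counts in the 3 SF-mut libraries and 8.67 ± 3.17 CPM with EV, 3.59 ± 3.14 with FL, 21.4 ± 8.15 with FL-mut and 12.7 ± 11.7 with SF-Nte (SD, n = 3 each). Of the BMP and SMAD list, 10 of 34 genes were tested. BMPR1A, another type I receptor, had 44.8 ± 2.47 CPM with EV and 98.5 ± 41.8 with FL-mut (log2 fold change 1.13 ± 0.39, SE; edgeR adjusted p = 0.31). SMAD6 and SMAD7, the inhibitory SMADs, had at most 2 counts in any group.

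Of the Notch list, 12 of 35 were tested and 0 had an unadjusted p under 0.05 in any of the 4 comparisons with EV. RBPJ, the DNA-binding partner of Notch, averaged 107 ± 19.2 CPM with EV and 143 ± 18.9 with FL (SD, n = 3). Its mean lay below EV in every other group: SF-mut 67.7 ± 59.7 CPM, SF-Nte 85.6 ± 50.1, FL-mut 82.6 ± 31.0. The lowest SF-mut library held 0 counts of RBPJ. NOTCH2 averaged 25.1 ± 8.36 CPM with EV and 37.5 ± 18.4 with FL. Its remaining means were 15.8 ± 4.20 CPM (SF-mut), 25.8 ± 7.31 (SF-Nte) and 34.3 ± 15.8 (FL-mut). The tissue-restricted bHLH factors that pair with E proteins were scarcely expressed: 9 of 34 were read and 0 were deep enough to test. TWIST1, a mesenchymal factor of that class, had the most reads, 2.25 ± 1.28 CPM in EV and at most 7.37 CPM in any library.

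Of the list of turnover factors and cofactors, 11 of 20 were tested. SKP2, a ubiquitin ligase subunit, had 32.1 ± 2.81 CPM with EV against 14.8 ± 4.44 with FL, 8.76 ± 6.72 with FL-mut, 12.8 ± 2.74 with SF-Nte and 12.2 ± 5.54 with SF-mut (SD, n = 3), with edgeR adjusted p of 0.77, 0.31, 0.71 and 0.92. USP1, the deubiquitinase that stabilises ID proteins, stood at 12.6 ± 3.88 CPM in EV and between 3.27 and 8.39 on average with the constructs. Its EV libraries ran from 8.74 to 16.5 CPM. FL reached 14.9, FL-mut 12.1 and SF-mut 9.80, so these overlapped EV. SF-Nte reached 7.70, and 11.3% of genes tested lay lower than EV there without overlap. Each short-form group held only 6 counts of USP1. LMO4, a LIM-only cofactor, had 11.6 ± 6.06 CPM with EV and 2.58 ± 0.998 with FL (log2 fold change -2.15 ± 0.92, SE; adjusted p = 0.55). Among E-box repressors and E-protein targets 4 of 19 were tested. CDKN1A, the cell cycle inhibitor p21 that E proteins can activate and ID proteins oppose, had 8.48 ± 3.99 CPM with EV, 7.56 ± 10.8 with FL and 48.4 ± 33.9 with FL-mut (SD, n = 3; FL-mut against EV 2.51 ± 1.11, SE, adjusted p = 0.44). Of the ZBTB18 corepressors, 7 of 10 were tested, with medians between -0.20 and 0.09 in the 4 comparisons with EV.

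The genes most alike in pattern were found by Pearson correlation of log2 CPM over the 15 libraries, as a description. The libraries share depth and groups, and the best of many genes is high by selection. ID1 was most like CTPS1 (r = 0.84), ID2 like GAR1 (0.83), ID3 like DLAT (0.87) and CD44 (0.84), TCF3 like CRY1 (0.90), TCF4 like GTF2H2C (0.86), TCF12 like AP1B1 (0.81) and HES1 like EIF2AK2 (0.82). Pairs within the family were not picked for a high value, so they cannot be set against those above. Their r ran from -0.30 (ID3 and HES1) to 0.57 (ID1 and TCF4). ID1 and ID3 had r = 0.46, ID2 and ID3 0.46, and ID2 and TCF3 0.53. For ID2 and TCF12 r was 0.48, for TCF4 and HES1 0.48, and for TCF3 and TCF12 0.45. Not every pair rose and fell together across these libraries.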

How the data were processed

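Polyadenylated RNA of SNB19 cells was made into libraries with Oxford Nanopore PCR barcoding and cDNA-PCR kits, per the labels. The table the authors deposited holds raw read counts by gene symbol; GRCh38 is the build in the submitters' processing notes. Aligner, counter, strand setting and annotation: not given in the sources used here. Reads carry no molecular identifiers here, so floors cover counting error only. Of the nonzero counts of tested genes 54.6% were even, and for ID2 13 of 14 were, for ID3 12 of 14 and for ID1 11 of 13, but for TCF3 1 of 9. Whether some reads were counted more than once was not tested; if so, the counts of ID1, ID2 and ID3 overstate the independent reads, and their tests rest on fewer.

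Groups and replicate numbers come from the sample titles, and columns were matched through the deposited sample sheets. Replicates differed beyond sampling noise (chi-square per gene from 4.23 to 38.0). The test was edgeR 4.0.16 (R 4.3.3). Its filterByExpr (minimum count 10, minimum total 15) kept 6767 genes, libraries were scaled by TMM, and all 15 libraries entered a robust quasi-likelihood fit with a coefficient for each group (10 residual degrees of freedom). The 8 comparisons of groups, the interaction and a test over the 5 groups were adjusted by Benjamini-Hochberg over all genes at 0.05. An SE is the absolute log2 fold change over the root of the F statistic. A group at 0 was given a bound of 3 counts over its libraries. The fit was tested on simulated data. Alternatives were DESeq2 1.42.0, other scalings and filters, the compared groups alone, the replicate number as a block and leaving out each library.

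The members, lists and tests were chosen with earlier results of these data known. The rule for named genes took all 8 members, in each list the genes past the threshold or else the 2 of lowest p in a comparison, and the 3 genes of highest correlation with each member (log2 CPM, prior count 2); the text gives some of these. MDK, RBPJ, USP1, SMAD6, SMAD7 and TWIST1 fall outside it and were chosen after their values were seen. Same-number libraries of EV and FL deviated together over 1975 genes (r = 0.37, 0.16 and 0.52, all over 0.1), so the numbers count as pairing EV with FL, from the data alone; in the other 7 comparisons at least 1 pair was under 0.1. In SF-mut against FL-mut the values were 0.61, 0.67 and 0.02. The results above come from the fit without the block unless stated. The block changed no call of a member in FL against EV.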

Additional observations from a re-analysis of the deposited data

How the results depend on the processing

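Counts of members called by edgeR (0 against EV, 1 of 7 in SF-Nte against FL, in SF-mut against FL-mut and over the 5 groups) changed with some settings. Without the low-count filter, which tests 18485 genes, they were 1 in FL against EV, 3 in SF-Nte against EV, 2 in SF-mut against EV, 1 in FL-mut against FL, 1 in SF-mut against SF-Nte, 3 in SF-Nte against FL and 5 over the 5 groups; calls over all genes also rose, in the same order from 21 to 202, 3 to 121, 4 to 81, 6 to 348, 0 to 193, 72 to 301 and 76 to 1059. With DESeq2 they were 1 in SF-Nte and 1 in SF-mut against EV, 2 in SF-Nte against FL (ID2 and TCF3) and 2 over the 5 groups (TCF12 and TCF3), where it called 24, 25, 296 and 652 of 6767 genes. With the replicate block they were 0 in SF-Nte against FL and 0 in SF-mut against FL-mut (adjusted p of TCF3 0.065 and 0.092), and with the compared groups alone 0 in SF-mut against FL-mut (0.30). In SF-Nte against FL, TCF3 did not pass the low-count filter of that fit and so was not tested. The fit called ID2 instead, among 130 of 4432 genes called. Why the other calls changed was not tested. With 1 library left out the count ranged from 0 to 1 in SF-Nte against FL and from 0 to 1 in SF-mut against FL-mut.

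Log2 fold changes that changed sign were all of members not called. HES1 in FL against EV was -0.0025 as reported, and 0.0263 with DESeq2 size factors, 0.0701 with library totals, 0.00947 at a minimum count of 20, 0.0428 with the replicate block and 0.0247 with DESeq2. With the replicate block ID2 was 0.87 in FL and 0.71 in FL-mut against EV, and TCF4 -0.0105 in FL-mut against FL. The block changed no other direction among the values reported. Outside their group, 8 of 15 libraries correlated best with a library of their own number. With 1 library left out the ranges were, in FL against EV, -0.61 to 3.56 for ID2, -3.32 to 1.39 for ID3, -1.72 to 1.97 for TCF12 and -0.22 to 0.26 for HES1. They were -0.89 to 3.39 for ID2 and -2.17 to 1.91 for ID3 in FL-mut, -3.79 to 0.25 for ID3 in SF-Nte, and -1.42 to 0.53 for ID1, -2.34 to 1.88 for ID2, -1.66 to 3.97 for ID3 and -0.79 to 0.87 for HES1 in SF-mut. TCF4 ranged from -0.45 to 0.51 in FL-mut against FL and HES1 from -0.0162 to 1.62 in SF-mut against SF-Nte. Of 638 alternative fits of single members, 575 kept their direction and side of the threshold, 31 changed sign, 19 newly passed and 13 no longer passed. Depth limits the short-form groups most, where 1 count is worth up to 3.08 CPM.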
